A study of Mus musculus with 4 samples.

Results

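The 5 genes described here encode the secreted ligands of the vascular endothelial growth factor (VEGF) family: Vegfa (ENSMUSG00000023951), Vegfb (ENSMUSG00000024962), Vegfc (ENSMUSG00000031520), Vegfd (ENSMUSG00000031380) and Pgf, placental growth factor (ENSMUSG00000004791). They were chosen by symbol and each matched 1 of the 32285 gene rows. Their transcripts were counted in spots of mouse olfactory bulb sections with Visium, a slide assay in which each barcoded spot captures polyadenylated RNA from the tissue above it. A spot can hold several cells of different types. The tissue came from 1 control mouse and 1 mutant mouse, each on 2 capture areas, cut coronally at 10 µm from frozen bulbs. The control gave 2 sections on 1 area and 1 on the other, and the mutant gave 2 sections on each. The mutant carried a treatment label of VEGF blockade at E13.5. Per the treatment protocol, a soluble VEGFR1 transgene blocked VEGF during development, under tetracycline regulation with the camk2a-tTa driver, which is described as brain-specific, and animals were killed at 5 months. The same protocol text stands on the control samples, and the labels do not say which alleles the control carried. The design text describes the second mouse as one whose bulb had partly degenerated. With 1 mouse of each kind, areas of 1 mouse are technical repeats.

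The spots fall into 4 libraries, told apart by the number at the end of each barcode. These numbers match no sample label, so no library was assigned to a mouse, and no comparison of control with mutant was made. Every value below belongs to 1 library, and intervals are 95% exact intervals that cover counting error only. After 97 spots with fewer than 500 unique molecular identifiers (UMIs, each standing for 1 captured molecule) were set aside, 1662, 715, 1296 and 943 spots remained in libraries 1, 2, 3 and 4. They held 13304973, 5223890, 12533691 and 9533952 UMIs, with median depths of 7186 to 9829 UMIs per spot. Of 2796 different barcode sequences, 1460 occurred in more than 1 library, as the slides carry the same set of spot barcodes. Bulb markers were present in all 4 libraries: the level of Th, the dopamine synthesis enzyme of periglomerular neurons, was 584, 531, 123 and 116 CPM (UMIs of a gene for every 1000000 UMIs), and that of Cdhr1, a mitral and tufted cell cadherin, was 775, 676, 348 and 319. Forebrain excitatory neuron markers were present too, at 998 to 2199 CPM for the list as a whole.

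VEGF-A binds VEGFR1 (Flt1), a high-affinity receptor with weak kinase activity, and VEGFR2 (Kdr), the main signalling receptor of endothelium. VEGF-B and PGF bind VEGFR1 only, whereas VEGF-C and VEGF-D signal through VEGFR3 (Flt4) and act on lymphatic vessels. In brain, Vegfa is made largely by astrocytes and some neurons, and its transcription rises in low oxygen through HIF, a factor that binds ACGTG or GCGTG. Vegfb is abundant in tissue with high oxidative metabolism and is not known as a hypoxia-inducible gene. VEGF-A also acts in the bulb on the vessels and on the neuroblasts that reach it. A soluble VEGFR1 traps VEGF-A, VEGF-B and PGF. It is not stated whether reads from the transgene add to the Flt1 count.

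The promoters of the 3 most abundant ligands are shown because Vegfa and Vegfb, the most abundant pair, differed in how they were spread over spots. The sequences are the 250 bases before the first start listed for each gene by RefSeq in GRCm38.p6. They are printed 5′ to 3′ on the gene's strand, which is the minus strand for these 3 genes, and capitals mark ACGTG or GCGTG on either strand. The Vegfa window is chr17:46032378-46032627, that of Vegfb chr19:6987652-6987901 and that of Pgf chr12:85177314-85177563.
Vegfa: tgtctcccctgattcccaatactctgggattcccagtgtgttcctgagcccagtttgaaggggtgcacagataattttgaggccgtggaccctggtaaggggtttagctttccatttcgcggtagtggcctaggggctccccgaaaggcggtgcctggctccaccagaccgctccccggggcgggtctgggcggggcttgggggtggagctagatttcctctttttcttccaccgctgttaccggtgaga
Vegfb: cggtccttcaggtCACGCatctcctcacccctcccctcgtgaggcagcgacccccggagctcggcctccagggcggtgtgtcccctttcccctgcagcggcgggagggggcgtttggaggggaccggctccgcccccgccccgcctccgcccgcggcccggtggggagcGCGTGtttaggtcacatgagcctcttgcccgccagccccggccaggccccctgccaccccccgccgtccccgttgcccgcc
Pgf: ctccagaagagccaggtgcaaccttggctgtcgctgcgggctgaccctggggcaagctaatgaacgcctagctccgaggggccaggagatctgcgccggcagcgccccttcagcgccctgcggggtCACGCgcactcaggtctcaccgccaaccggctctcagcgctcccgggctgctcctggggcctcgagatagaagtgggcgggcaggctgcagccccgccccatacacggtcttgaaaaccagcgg
The Vegfa window held 0 matches, the Vegfb window 2 and the Pgf window 1. A window before the second listed Vegfa start held 2, and the windows of Vegfc and Vegfd held 0. Such a match is common: 12679 of 32851 windows of the same length had at least 1, or 38.6%, and 41.5% of genes had a window with one. Among the hypoxia-inducible genes used below, 11 of the 11 with a window had one. No match says only that these letters are not in this window. The G and C content was 59.2% in the Vegfa window and 76.4% in the Vegfb window, and the Vegfd window was lowest with 42.4% and held the only TATAAA among the members.

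Of the 2 abundant ligands, Vegfa differed more between libraries than Vegfb, and in the opposite direction. Vegfa gave 709, 281, 2359 and 1550 UMIs in libraries 1 to 4, or 53.3 (49.4 to 57.4), 53.8 (47.7 to 60.5), 188 (181 to 196) and 163 (155 to 171) CPM. Libraries 3 and 4 were each high, libraries 1 and 2 each low, and the intervals of 1 and 2 overlapped. The highest library stood 3.53-fold (3.25 to 3.85) above the lowest. Among 9852 genes with at least 500 UMIs in all, 7.85% differed at least 2-fold between their highest and lowest library and 19.6% at least 1.5-fold. Vegfb gave 195, 178, 143 and 156 CPM in libraries 1 to 4, with libraries 3 and 4 each below libraries 1 and 2. Its highest library was 1.37-fold (1.29 to 1.45) above its lowest. The counts are of 3′ ends and need no scaling by gene length, but genes differ in how well they are captured. On that scale the ratio of Vegfa to Vegfb UMIs was 0.273, 0.302, 1.32 and 1.04, and its interval in library 4, 0.972 to 1.12, held 1. Vegfa made up 20.4%, 22.0%, 54.3% and 48.6% of all ligand UMIs in libraries 1 to 4.

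The other 3 ligands were scarce. Pgf gave 102, 40, 119 and 90 UMIs, or 7.67, 7.66, 9.49 and 9.44 CPM, and its 4 intervals overlapped. Vegfc gave 49, 19, 51 and 40 UMIs, or 3.68, 3.64, 4.07 and 4.20 CPM, and no pair of libraries differed beyond counting error. Vegfd gave 12, 4, 26 and 24 UMIs, or 0.902, 0.766, 2.07 and 2.52 CPM. The Vegfd level in library 4 was 3.29-fold (1.13 to 13.0) that in library 2, an interval so wide that only the order is informative. The largest count of Vegfa in a single spot was 19, whereas Vegfd never exceeded 2.

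**Figure D1:**
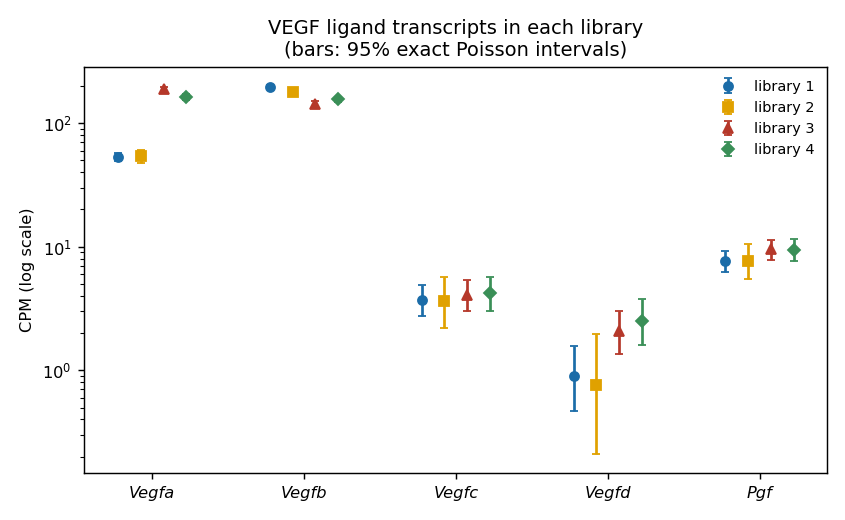
CPM of the 5 VEGF ligands (log axis) in each of the 4 libraries, with 95% exact Poisson intervals. Vegfa lies at 53.3 and 53.8 in libraries 1 and 2 and at 188 and 163 in libraries 3 and 4, while Vegfb stays between 143 and 195.

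The scatter of Vegfa over spots also differed between libraries. Relative to a spread in proportion to each spot's depth, where the chi-square per degree of freedom is 1, the Vegfa value was 1.01, 0.988, 2.71 and 2.45 in libraries 1 to 4. The median over all tested genes was 1.10 to 1.12 in each library. By this measure Vegfa showed no excess over counting error in libraries 1 and 2 and was spread unevenly in libraries 3 and 4. The measure is less sensitive at low counts, with 709 and 281 Vegfa UMIs in libraries 1 and 2 against 2359 and 1550 in libraries 3 and 4. Granule cell and sensory axon spots of library 1 were still low in Vegfa, as given below. For Vegfb the values were 1.14, 1.07, 1.08 and 1.12, close to the median gene in each library.

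To see which spots held the ligands, spots were ranked within each library by the share of their UMIs that fell on a marker list, and the top 10% was set against the other spots. There were 25 lists: 21 for cell types, 1 of hypoxia-inducible genes and 3 of the VEGF pathway, none of which holds a ligand. Library 2 had too few marker UMIs to be ranked for ependyma, choroid plexus and VEGF receptors, which leaves 22 lists there. A spot that ranks high for a list holds more of those transcripts, but more cells of a type and more RNA per cell cannot be told apart. Vegfa was at least 1.5-fold higher in the top 10% for 0 of 25 lists in library 1 and 0 of 22 in library 2, where 54.2% and 57.5% of genes reached that size for at least 1 list. It reached it for 10 of 25 lists in library 3 and 9 of 25 in library 4, and 8.53% and 8.08% of genes did so for as many lists. No list reached 1.5-fold in each library. The top 10% groups of different lists share spots. Placing each spot only in the cell list where it ranked highest leaves out the hypoxia and pathway lists. Of such groups with at least 30 spots, 0 of 20 in library 1 and 1 of 11 in library 2 reached 1.5-fold. So did 2 of 17 in library 3 and 2 of 16 in library 4. With groups of any size, 0 of 21, 1 of 19, 3 of 21 and 3 of 21 did in libraries 1 to 4. The group in library 2 was phagocytes, at 98.6 CPM (59.4 to 154) on 19 Vegfa UMIs.

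**Figure D2:**
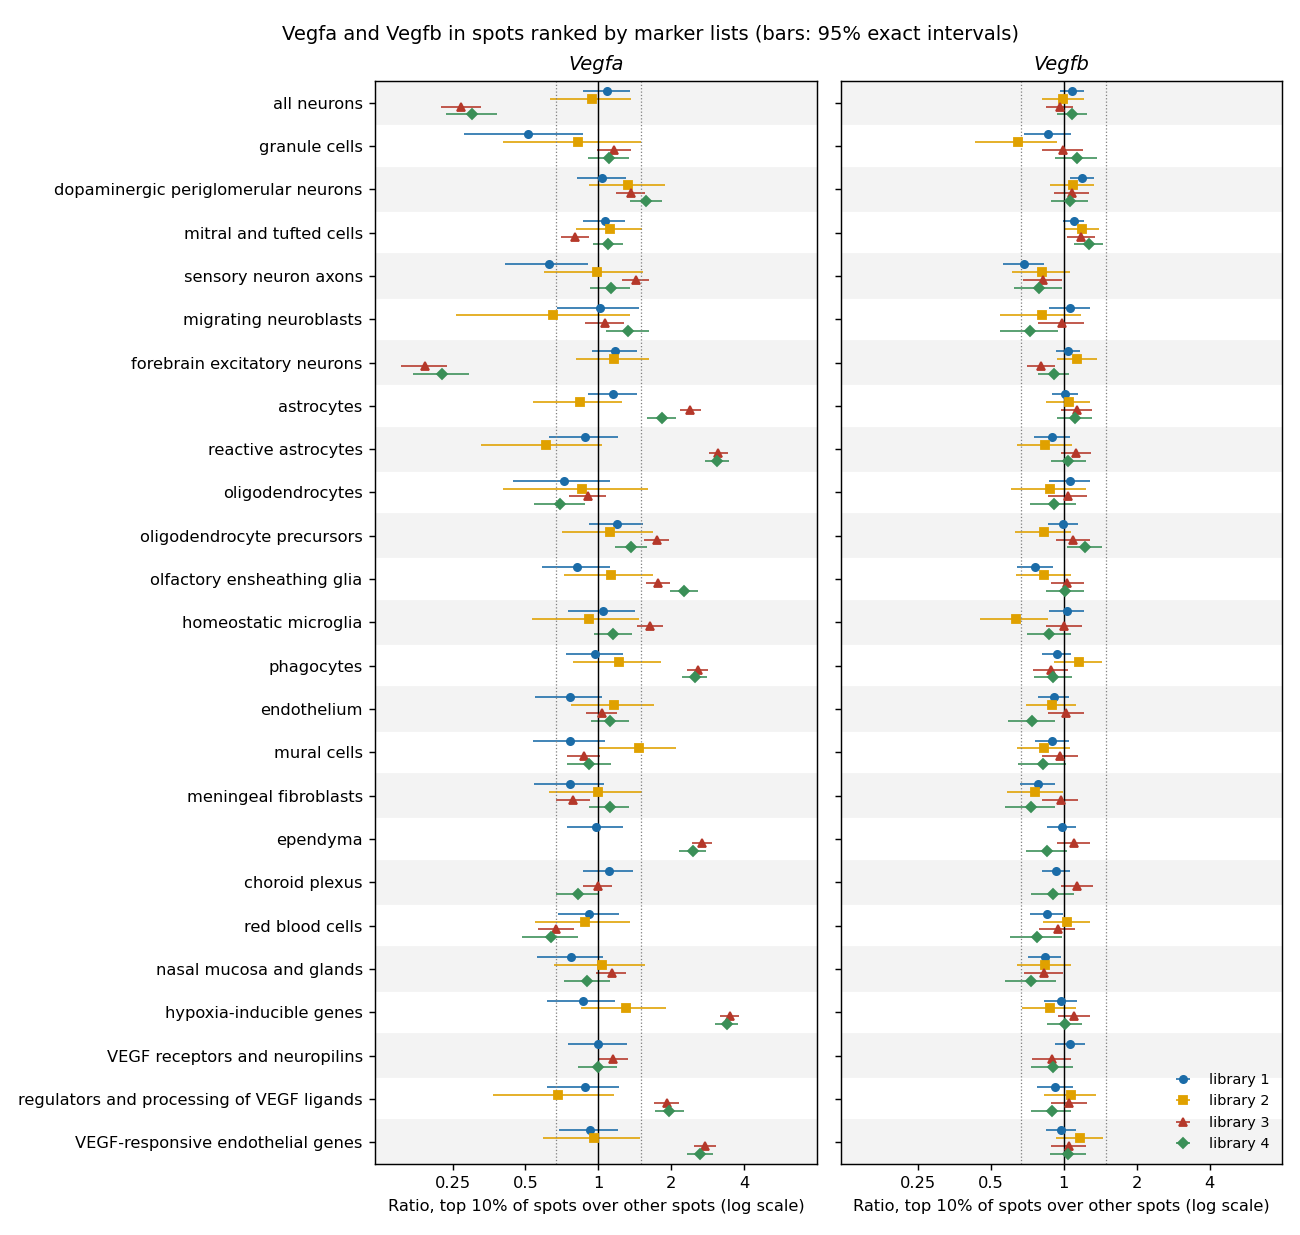
Ratio of CPM in the top 10% of spots over that in the other spots (log axis), for Vegfa and Vegfb, for 25 marker lists in 4 libraries with 95% exact intervals. Dotted lines mark 1.5-fold higher and lower. In libraries 3 and 4 Vegfa runs from 0.19 for forebrain excitatory neurons to 3.50 for hypoxia-inducible genes, while every Vegfb ratio lies between 0.63 and 1.27.

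Spots ranked highest for hypoxia-inducible genes held the most Vegfa in libraries 3 and 4. This list joins glycolytic enzymes (Pgk1, Ldha), the pyruvate dehydrogenase kinase Pdk1, the glucose transporter Slc2a1, the vasodilator peptide Adm, the HIF hydroxylase Egln3, the carbonic anhydrase Car9 and 5 other HIF targets. The Vegfa level in its top 10% was 46.4, 68.1, 523 and 439 CPM in libraries 1 to 4, against 53.8, 52.5, 150 and 129 in the other spots. The ratio was 0.86 and 1.3 in libraries 1 and 2, with intervals that held 1, and 3.50 (3.19 to 3.83) and 3.39 (3.03 to 3.79) in libraries 3 and 4. For comparison, 8.88% of all genes tested in library 3 and 7.76% in library 4 were at least 1.5-fold higher in the same spots. That group held 28.8% of the Vegfa UMIs of library 3 and 29.0% of those of library 4, with 10.4% and 10.7% of the depth. Down the ranking the level fell to 290 and 264 in the second 10% and 94.3 and 88.9 in the seventh, and stayed near there to the last, at 94.5 and 89.6. Even the lowest of these steps lay above the whole-library level of libraries 1 and 2.

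The reactive astrocyte list (Gfap, Vim, Serpina3n, Lcn2 and 4 others), genes that astrocytes raise after injury, gave nearly the same picture. Vegfa in its top 10% was at 47.3, 33.7, 477 and 412 CPM, with ratios to the other spots of 0.88, 0.61, 3.13 and 3.11, of which that in library 2 rests on 14 UMIs of Vegfa in the top spots. The same spots were at least 1.5-fold higher for 11.4% of genes in library 3 and 10.1% in library 4. The list itself was scarce in libraries 1 and 2, at 205 and 193 CPM against 2050 and 1687 in libraries 3 and 4. Lcn2, an acute-phase lipocalin, was at 0.526 and 0.766 CPM in libraries 1 and 2 and at 510 and 371 in libraries 3 and 4. In libraries 1 and 2 the top 10% for this list thus rests on few marker UMIs. The phagocyte list moved with library in the same way, at 76.1, 75.4, 843 and 705 CPM, and the hypoxia list at 1241, 1179, 2145 and 1920. The part of these lists in the Vegfa difference between libraries was not tested. Median depth was 10644 UMIs in the top spots and 8829 in the others in library 3, and 10180 and 9701 in library 4.

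**Figure D3:**
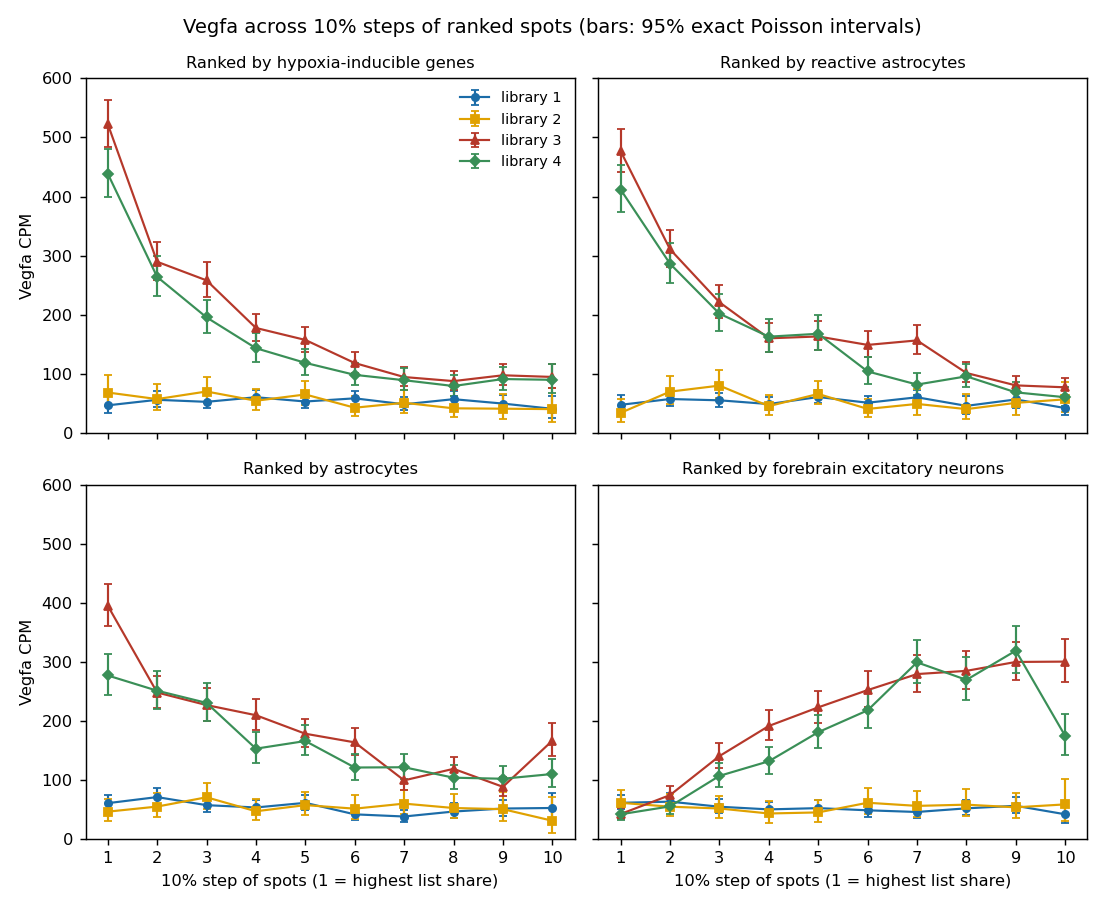
Vegfa CPM in successive 10% steps of the spots of each library (1 is the step with the highest list share), ranked by 4 marker lists, with 95% exact Poisson intervals. In libraries 3 and 4 the level falls from 523 and 439 down the hypoxia ranking and rises from 41.9 and 41.5 at the top of the forebrain neuron ranking to 300 at its end in library 3 and to 319 in the ninth step in library 4, where the last is at 174, while libraries 1 and 2 stay between 30.6 and 79.8 throughout.

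The hypoxia and reactive lists picked many of the same spots. Of the hypoxia top 10%, 51.5% in library 3 and 42.6% in library 4 also ranked in the top 10% for reactive astrocytes. Spots in both held 573 (521 to 629) Vegfa CPM in library 3 and 503 (444 to 569) in library 4. Spots of the hypoxia group outside the reactive group still held 449 (393 to 510) and 375 (324 to 431), and spots in neither held 138 and 117. Spots of the reactive group outside the hypoxia group held 354 (309 to 405) and 321 (274 to 374). Each list thus marked spots of higher Vegfa without the other. Of the 12 hypoxia-inducible genes, 12 in library 3 and 9 in library 4 were themselves at least 1.5-fold higher in the reactive top 10%. In libraries 1 and 2, 5 and 2 of the 11 tested were higher, beside 8.15% and 5.27% of all genes, and 1 was lower in each, beside 11.6% and 20%.

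Other glial lists followed at lower ratios. Astrocyte spots, ranked by the glutamate transporters Slc1a2 and Slc1a3, the water channel Aqp4 and others, held Vegfa at 60.3, 45.9, 395 and 277 CPM, with ratios of 1.15, 0.84, 2.40 and 1.84. The level was higher where the reactive list was high as well: astrocyte spots outside the reactive group held 240 (204 to 281) in library 3 and 194 (159 to 235) in library 4, against 562 (504 to 625) and 409 (345 to 483) inside it. Phagocyte spots, ranked by Lyz2, Gpnmb, Cd68 and other genes of lipid-laden and lysosome-rich macrophages, had ratios of 2.57 and 2.50 in libraries 3 and 4. Without the spots they shared with the hypoxia group, they still held 299 (261 to 340) and 283 (244 to 327) Vegfa CPM. Olfactory ensheathing glia, which wrap the incoming sensory axons, had ratios of 1.77 and 2.26. In those libraries Apod alone made up 69.8% and 67.1% of that list's UMIs. Oligodendrocyte precursors had ratios of 1.74 and 1.37. Homeostatic microglia, the resident brain macrophages, had 1.63 and 1.15. Oligodendrocyte spots did not share this pattern, with 0.91 and 0.69. The list named for ependyma had ratios of 2.69 and 2.45, but in libraries 3 and 4 it was led by Rarres2, a secreted adipokine, and Ccdc153, a cilium gene of ependyma, was at or below 0.64 CPM in every library. Those spots are Rarres2 spots rather than ependyma by their markers.

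Spots ranked highest for forebrain excitatory neurons and for all neurons held the least Vegfa in libraries 3 and 4. In the top 10% for forebrain excitatory neurons (Slc17a7, Nrgn, Neurod6 and others) Vegfa was at 60.9, 60.9, 41.9 and 41.5 CPM in libraries 1 to 4, and in the other spots at 52.2, 52.7, 219 and 184. The ratios were 1.17, 1.16, 0.19 (0.15 to 0.24) and 0.23 (0.17 to 0.29). In library 3, 23.4% of genes, and in library 4, 19.1%, were at least 1.5-fold lower in these spots. The top spots for these neurons were deeper than the rest in each of the 4 libraries, with medians of 15282 against 8498 UMIs in library 3 and 14851 against 9187 in library 4. The pan-neuronal list (Snap25, Syt1 and others) gave 57.3, 51.2, 57.8 and 54.4 CPM in its top 10%. For the pan-neuronal list, 0 of 6 pairs of libraries differed beyond counting error in these groups, and the ratio of highest to lowest was 1.13 (0.76 to 1.73). For forebrain neurons, library 1 stood 1.45-fold (1.09 to 1.95) above library 3 and 1.47-fold (1.06 to 2.05) above library 4, the opposite order to that of the whole libraries, and the other 4 pairs did not differ beyond counting error. For the other 20 lists ranked in every library the top 10% groups of the highest and the lowest library differed by 2.71-fold for red blood cells to 14.1-fold for reactive astrocytes.

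Spots ranked highest for neurons of the bulb itself did not show that low level in libraries 3 and 4. Vegfa in the top 10% was at 217 and 179 CPM for granule cells, the inhibitory interneurons of the deep bulb, and at 249 and 244 for dopaminergic periglomerular neurons. It was at 155 and 176 for mitral and tufted cells, the projection neurons, and at 259 and 182 for sensory neuron axons. Their ratios ran from 0.80 to 1.58 in those libraries, and the highest was that of dopaminergic spots in library 4. In library 1, by contrast, granule cell spots were low, at 27.8 CPM and a ratio of 0.51 (0.28 to 0.87), and so were sensory axon spots, at 34.0 CPM and 0.62 (0.41 to 0.91). These rest on 14 and 28 Vegfa UMIs. The median ratio over all tested genes in library 1 was 1.08 for granule cell spots and 0.850 for sensory axon spots.

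In spots ranked highest for vessels or meninges, Vegfa was within 1.5-fold of the other spots in every library. The ratios in libraries 1 to 4 were 0.76, 1.16, 1.04 and 1.12 for endothelium, the cells that carry the VEGF receptors. They were 0.77, 1.47, 0.87 and 0.92 for mural cells, the pericytes and smooth muscle of the vessel wall, and 0.77, 1.0, 0.79 and 1.11 for meningeal fibroblasts. Red blood cell spots, ranked by haemoglobin transcripts, were low at 0.67 and 0.64 in libraries 3 and 4. Spots ranked by the VEGF receptors and neuropilins had ratios of 1.0, 1.15 and 0.99 in libraries 1, 3 and 4. In library 2 the mural cell group held the highest Vegfa level of the cell lists, 76.0 CPM (53.3 to 105), on 36 UMIs, and did not differ beyond counting error from the next in order.

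When the 21 cell lists were ordered by the Vegfa level in their top 10% groups, neighbours in the order rarely differed beyond counting error: 0 of 20 pairs in library 1, 0 of 18 in library 2 and 3 of 20 in each of libraries 3 and 4. Reactive astrocytes stood highest and forebrain excitatory neurons lowest in both of libraries 3 and 4. In library 3 the steps that exceeded counting error were from astrocytes to olfactory ensheathing glia (1.27-fold, 1.11 to 1.46), from red blood cells to all neurons (2.25-fold, 1.75 to 2.90) and from all neurons to forebrain neurons (1.38-fold, 1.04 to 1.84). In library 4 they were from reactive astrocytes to phagocytes (1.16-fold, 1.01 to 1.35), from olfactory ensheathing glia to astrocytes (1.19-fold, 1.0 to 1.42) and from red blood cells to all neurons (1.95-fold, 1.37 to 2.77). For Vegfb no neighbours differed in any library.

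Vegfb showed no list of spots in which it was 1.5-fold higher, in any library, and 2 in which it was 1.5-fold lower, granule cells (0.65) and homeostatic microglia (0.63), both in library 2. Its ratios spanned 0.68 to 1.19, 0.63 to 1.19, 0.81 to 1.18 and 0.72 to 1.27 in libraries 1 to 4. It was slightly higher in mitral and tufted cell spots, at 211, 206, 165 and 190 CPM and ratios of 1.10, 1.19, 1.18 and 1.27. It was low in sensory axon spots, at 136, 146, 119 and 125 CPM and ratios of 0.68, 0.81, 0.82 and 0.79, of which the interval in library 2 held 1. The median ratio over all tested genes was itself 0.850, 0.847, 0.877 and 0.878 there, so Vegfb lay furthest below the typical gene in library 1. In the hypoxia group, where Vegfa was more than 3-fold higher in libraries 3 and 4, Vegfb was at 156 and 157 CPM against 141 and 155 elsewhere. In the forebrain neuron group, where Vegfa was lowest, Vegfb was at 119 and 143.

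**Figure D4:**
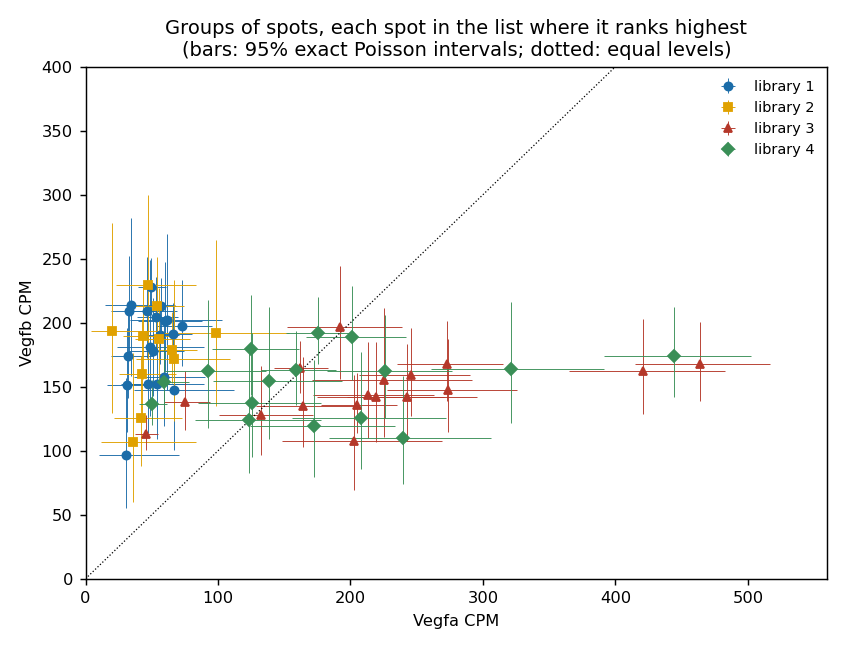
Vegfa against Vegfb in CPM for 64 groups of at least 30 spots, each spot placed in the cell list where it ranks highest, with 95% exact Poisson intervals and a dotted line of equal levels. Vegfa spans 45.3 to 464 in library 3 and 50.2 to 444 in library 4 but 30.2 to 72.5 in library 1, while Vegfb spans 96.6 to 230 over all groups.

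Pgf, Vegfc and Vegfd had too few UMIs for a ratio in each library, so their UMIs in the top 10% groups were summed over libraries and set against the number that the depth of those spots would give within each library. Pgf exceeded that number for 15 of 25 lists and was below it for 4. How many of all genes reach such counts was not computed, for Pgf or for Vegfc and Vegfd below. The lists also share spots, so the count is only a description. The largest excess was in reactive astrocyte spots, with 71 UMIs against 32.5 expected (ratio 2.19, 1.71 to 2.76). Those 71 were 6, 7, 33 and 25 in libraries 1 to 4 against 6.49, 3.18, 13.1 and 9.68 expected, so that library 1 showed no excess. Olfactory ensheathing glia spots held 63 against 30.1 and meningeal fibroblast spots 51 against 27.3, and both exceeded expectation in each of the 4 libraries. Hypoxia spots held 59 against 32.2, and endothelial spots 46 against 28.7. The 4 lists with Pgf below expectation were lists of neurons. Granule cell spots held 3 UMIs against 19.1 (0.16, 0.03 to 0.46) and forebrain neuron spots 19 against 52.6. The all-neuron list gave 19 against 49.2, and mitral and tufted cells 35 against 50.8. Other neuron lists were not low. Sensory axon spots held 37 against 25.7 (1.44, 1.02 to 1.99). Dopaminergic spots held 45 against 33.5 and neuroblast spots 15 against 16.2, with intervals that held 1. Pgf thus shared with Vegfa its high level in reactive and hypoxia spots and its low level in forebrain neuron spots. Pgf also exceeded expectation in endothelial and meninges spots, where the Vegfa ratios ran from 0.76 to 1.16. With each spot in 1 cell list only and groups of any size, Pgf was at 1.34 (0.75 to 2.20) for endothelium. It was then at 1.28 (0.55 to 2.53) for meningeal fibroblasts, so both intervals held 1. Reactive astrocyte groups stayed above, at 1.96 (1.34 to 2.77). Mitral and tufted cell groups were then at 0.93 (0.68 to 1.25), while those of granule cells, forebrain neurons and all neurons stayed below.

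Vegfc, the lymphangiogenic ligand, exceeded expectation for 7 lists, those of vessels and blood, meninges, sensory axons and their ensheathing glia, and nasal mucosa and glands, and was below it for 1. It gave 31 UMIs against 13.0 expected in endothelial spots (2.39, 1.62 to 3.39), 29 against 12.3 in meningeal fibroblast spots (2.35, 1.58 to 3.38) and 22 against 12.3 in mural cell spots. Red blood cell spots gave 21 against 12.6 (1.67, 1.03 to 2.55). Nasal mucosa and gland spots gave 31 against 12.5 (2.48, 1.69 to 3.53). It gave 31 against 11.6 in sensory axon spots (2.68, 1.82 to 3.80) and 26 against 13.6 in olfactory ensheathing glia spots. The endothelial, meningeal and mucosal excess was present in each of the 4 libraries. With each spot in 1 cell list only and groups of any size, meningeal fibroblasts stayed above, at 3.90 (1.95 to 6.99). Ensheathing glia did too, at 2.20 (1.06 to 4.05). For endothelium the ratio was then 1.76 (0.81 to 3.35), an interval that held 1, as did those of the remaining lists named here. In the top 10% of sensory axon spots the excess was present in 3 libraries, with 9, 1, 8 and 13 UMIs against 3.03, 1.44, 4.30 and 2.80. In mitral and tufted cell spots Vegfc gave 10 against 23.1. Vegfc was near expectation in hypoxia spots (15 against 14.5) and reactive astrocyte spots (16 against 14.6).

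Vegfd, with 66 UMIs in all, can be read only where its counts differ most. It exceeded expectation for 1 list, all neurons, with 18 UMIs against 9.55 (1.88, 1.12 to 2.98), and this excess was present in libraries 1, 3 and 4. It fell short in reactive astrocyte spots, with 1 against 6.53, and in oligodendrocyte precursor spots, with 0 against 5.76, for which the interval of the ratio reached 0.64. With each spot in 1 cell list only and groups of any size, both intervals held 1, reaching 1.10 and 1.92. All neurons then stayed above, at 2.87 (1.64 to 4.66). Endothelium was then above as well, with 6 UMIs against 1.99 (3.01, 1.10 to 6.55). Over the 21 cell lists, 19 of 63 pairs of a list and 1 of these 3 ligands were above expectation. With each spot in 1 cell list only, 7 of 63 were, or 6 of 60 with groups of at least 30 spots.

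**Figure D5:**
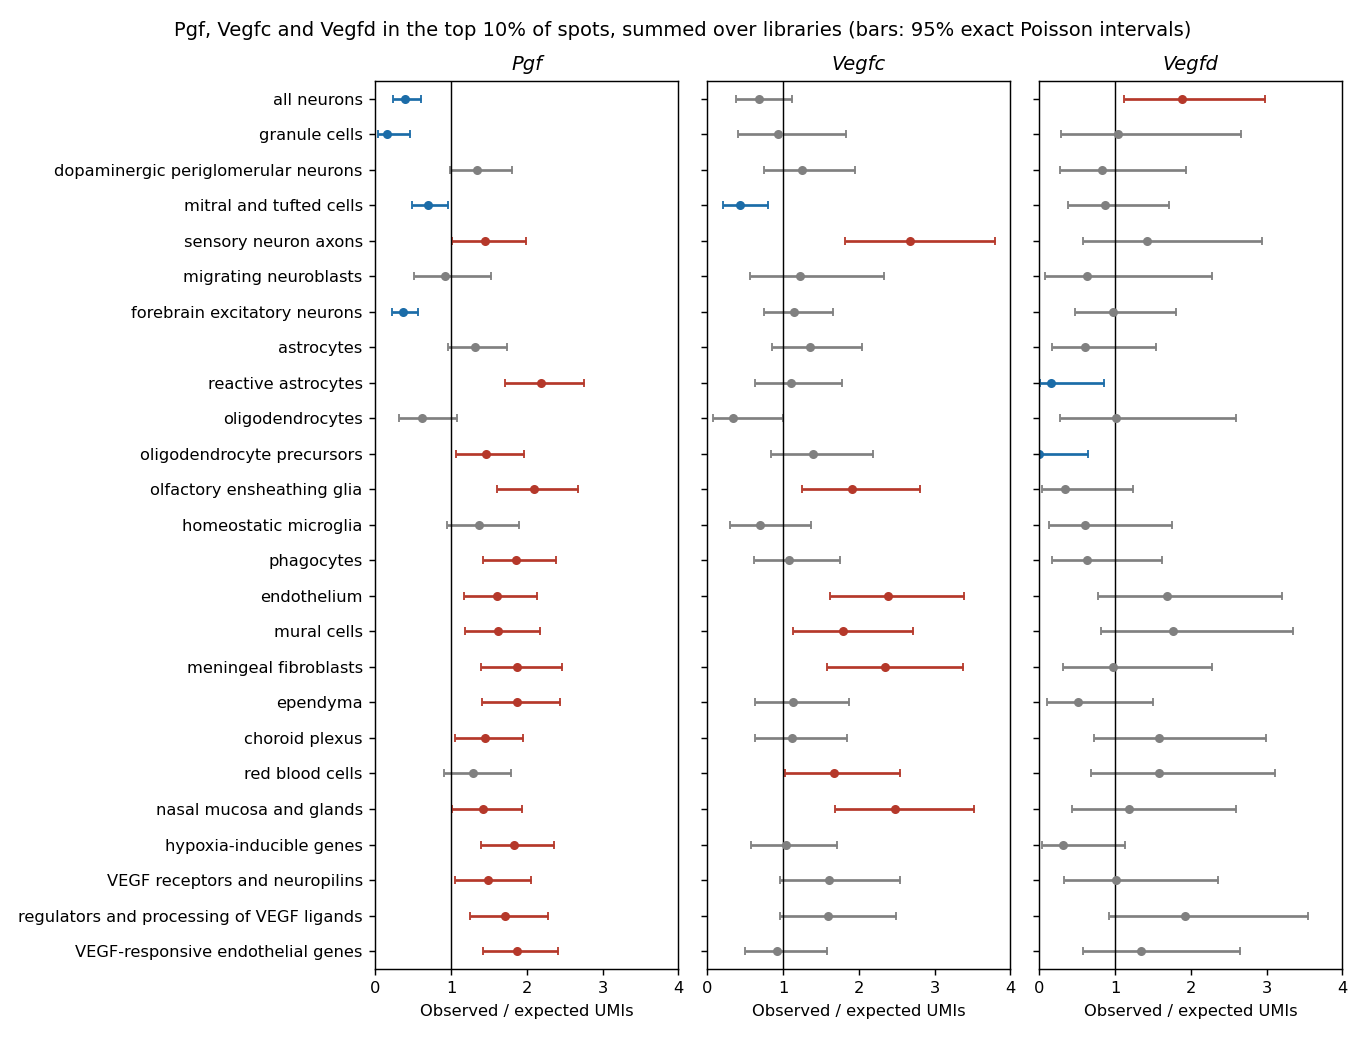
UMIs of Pgf, Vegfc and Vegfd in the top 10% groups of spots for 25 lists, summed over libraries and divided by the number expected from depth, with 95% exact Poisson intervals (red above 1, blue below 1, grey holding 1). Pgf is above 1 for 15 lists, Vegfc for 7 and Vegfd for 1.

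The pathway genes were read in the hypoxia top 10% groups, where Vegfa was highest. Of the 5 receptor and neuropilin genes, 3 in library 3 and 4 in library 4 had enough UMIs, and 0 were at least 1.5-fold higher in either, beside 8.88% and 7.76% of all genes. Nrp2 was lower in library 3, beside 12.7% of all genes. Kdr, the main signalling receptor, had ratios of 0.80 (0.37 to 1.53) and 0.70 (0.25 to 1.61), Flt1 had 1.49 (1.06 to 2.05) and 1.05 (0.68 to 1.57), and Nrp2, a co-receptor, had 0.57 and 0.75. In library 1, by contrast, 4 of 4 tested receptor genes were higher in the hypoxia group, with a median ratio of 1.96, beside 2.74% of all genes, while Vegfa was not. The intervals of Flt4, with 3 UMIs in the group, and Nrp2, with 6, held 1. The hypoxia list was led by Pgk1 in library 1, with 45.6% of its UMIs. In libraries 3 and 4 it was led by Ldha, with 32.9% and 33.2%. The groups may thus not mark the same kind of spot, which was not tested. Among the 9 regulators, 3 of 8 tested in library 3 and 2 of 8 in library 4 were higher and 1 was lower in each, where 12.7% and 9.51% of all genes were lower. Epas1, which encodes HIF-2α, had ratios of 1.91 and 1.60, and Hspg2, the matrix proteoglycan perlecan, had 3.33 and 2.66. Egln1, the oxygen sensor that marks HIF for decay and is itself a HIF target, had 1.80 and 1.49. Hif1a, which encodes HIF-1α, had ratios near 1, at 0.94 (0.73 to 1.21) and 0.93 (0.67 to 1.25).

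Of the 6 genes that endothelium raises in response to VEGF, 3 of 5 tested were higher and 1 lower in library 3, and 2 higher and 2 lower in library 4, against the same shares of all genes (8.88% and 7.76% higher, 12.7% and 9.51% lower). Apln, a peptide made by endothelial tip cells and also by other cells in low oxygen, had ratios of 5.21 (4.48 to 6.04) and 4.62 (3.84 to 5.55), and 0.80 and 1.47 in libraries 1 and 2. Cxcr4, a chemokine receptor of tip cells, leukocytes and neuroblasts, had 4.23 and 2.59. Plvap, a protein of fenestrated endothelium, had 1.16 and 1.26, with intervals that held 1. The lower genes were Dll4, the tip cell Notch ligand, with 1 and 2 UMIs in the top 10% groups, and in library 4 also Angpt2. Angpt2, an antagonist of Tie2 made by endothelium, went opposite ways on few UMIs, with 9 in the group and a ratio of 1.90 (0.81 to 3.97) in library 3 and 2 and 0.42 (0.05 to 1.60) in library 4. Apln made up most of this list in libraries 3 and 4, at 61.0 and 54.0 CPM against 15 and 14.9 in libraries 1 and 2, so that the Vegfa ratios of 2.76 and 2.63 in its top 10% describe Apln spots rather than endothelium.

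Genes whose level followed a ligand were sought over the 64 groups of spots, of which 20, 11, 17 and 16 came from libraries 1 to 4. Pearson's r was taken on log2(CPM + 1) centred within each library, over 9518 genes. Groups of 1 library share its sections and depth, so r is a description. The 10 genes most like Vegfa, from r = 0.78 to 0.71, were Car9, the cholesterol exporter Abca1, the lactate transporter chaperone Bsg, the bicarbonate transporter Slc4a4, the glutamine transporter Slc38a3, the transcriptional repressor Bhlhe41, the glial filament Gfap, the epoxide hydrolase Ephx2, the lysosomal protease Ctsl and the acyl-CoA binding protein Dbi. For Car9, r was 0.93 and 0.89 within libraries 3 and 4 and 0.13 and -0.09 within libraries 1 and 2. The Car9 level was 0.0752, 0.191, 74.2 and 48.7 CPM, so that libraries 1 and 2 held almost none. Slc38a3, Bhlhe41, Ephx2 and Ctsl followed Vegfa within each library, with r of at least 0.41. The order depends on the centring: without it Car9 was still at the top, with r = 0.93, and Slc38a3 was at -0.09.

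Vegfb had weaker companions. Its 10 most like genes, from r = 0.64 to 0.57, were the microtubule end protein Mapre1, the polarity protein Patj, the calcineurin regulator Rcan2, the NMDA receptor subunit Grin2c, the CTP synthase Ctps, Ogfrl1, the phosphate transporter Slc20a1, the succinyl-CoA ligase subunit Suclg1, the coactivator Edf1 and the transcription factor Pou3f3. No gene was among the 10 of both ligands, but with 10 of 9518 genes for each this says little about the pair. Between the ligands, r was 0.28 for Vegfa and Vegfb, 0.51 for Vegfa and Pgf, and -0.18 for Vegfa and Vegfd. Pgf and Vegfd, with 351 and 66 UMIs in all, lay below the minimum of 500 UMIs set for the 9518 genes. Adm, with 486, did too. For Vegfa and Vegfd, r was 0.07, 0.38, -0.46 and -0.18 within libraries 1 to 4, so these counts do not settle its sign. For Vegfa and Pgf, r was 0.25, 0.59, 0.58 and 0.76. Of the 12 hypoxia-inducible genes, Car9 was nearest to Vegfa, followed by Adm (0.57) and P4ha1 (0.55), a collagen hydroxylase subunit, while Ankrd37 had the lowest value (0.13). This order did not hold within each library. In library 3 Adm (0.95) was above Car9 (0.93), and in library 4 Ndrg1 (0.32) was lowest. Ankrd37 was at -0.48 and -0.36 in libraries 1 and 2 and at 0.55 and 0.35 in libraries 3 and 4.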

How the data were processed

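UMIs were counted per gene and spot by the authors and deposited as 1 matrix of whole-number counts. Space Ranger 1.3.1 made it per the file headers. Per the submitters' processing notes the build was GRCm39, but the number of gene rows is that of an mm10 reference, and the build stays uncertain. Only RefSeq promoter coordinates (GRCm38.p6) are printed. Read filters are not given. Columns were assigned to libraries 1 to 4 by barcode number only.

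Python 3.11.15 with numpy 2.4.6, pandas 2.3.3 and scipy 1.17.1 was used. Spots with at least 500 UMIs were kept. Levels are CPM, the summed UMIs of a gene for every 1000000 summed UMIs, with exact Poisson intervals, and ratios have exact conditional binomial intervals at 95%. A list was ranked where at least 3 of its genes had 20 UMIs in the library. Shares of all genes cover those with at least 200 UMIs in the library. In pathway counts, higher means at least 1.5-fold and lower at most its inverse, for genes with at least 20 UMIs in the library. No p-value was computed, because areas of 1 mouse are not replicates and libraries match no label. The ratio and its interval were tested on simulated Poisson counts with known folds, in the hypoxia top 10% of library 3 only. The ranking itself was not tested. Genes named are the members, the pathway and hypoxia lists, the 10 genes most like Vegfa and the 10 most like Vegfb over groups of at least 30 spots among genes with at least 500 UMIs, and list markers. Mitochondrial, ribosomal protein and unnamed gene models are not named. The members and lists were chosen with earlier results of these data known. Alternatives changed the spot minimum, the top share, the score, the depth (thinning to 2000 UMIs), the overlap of lists, the denominator, the averaging and the fold, and left out each library. One more, groups of any size with each spot in 1 list, was chosen after seeing the data.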

Additional observations from a re-analysis of the deposited data

How the results depend on the processing

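The Vegfa ratio of highest to lowest library was 3.53 and moved to 4.0 as a mean over spots of each spot's share. The number of lists with Vegfa at least 1.5-fold higher in the top 10% went from 0 in library 2 to 1 with the top 20% of spots, with a mean z score, with each spot in 1 list only or without mitochondrial, ribosomal protein and haemoglobin UMIs, and to 2 as a mean of shares. It went from 10 to 6 in library 3 with a 2-fold threshold, and to 2 in libraries 3 and 4 with each spot in 1 list only. That setting has no hypoxia or pathway lists and needs groups of at least 30 spots. With groups of any size, an alternative chosen after seeing the data, the count was 1 in library 2 and 3 in libraries 3 and 4. The third group was then phagocytes, with 26 and 24 spots and Vegfa at 426 and 409 CPM. The pairs of scarce ligand and list above expectation went from 23 (19 over cell lists) to 6, and to 7 with groups of any size. Leaving out each library in turn left 0 lists called in every remaining library for Vegfa and for Vegfb. Reversals of direction were counted only for Vegfa and Vegfb ratios past 1.5-fold either way, and for scarce ligands whose interval excluded 1. Smaller ratios that crossed 1 are not listed. The reversals of Vegfa were in library 2. They were for migrating neuroblasts (1.22 with the top 5%, 1.05 with mean z, 1.09 as a mean of shares) and reactive astrocytes (1.0 with the top 20%, 1.03 with mean z). Other reversals were of Pgf for VEGF receptors on thinned counts (0.741) and, with each spot in 1 list only, of Vegfc for sensory axons (0.643, 1 UMI against 1.55 expected) and Pgf for phagocytes (0.552, 3 against 5.44) and mural cells (0.764, 4 against 5.23), each from 2 libraries and with an interval that held 1. With groups of any size they were 0.892, 1.47 and 1.40, again with intervals that held 1. The lowest r among the 10 genes most like Vegfa was -0.0899 without centring and -0.0865 within a single library. The cause of these changes was not tested. Of the other Vegfa ratios, 861 moved by no more than their interval and 153 by more, and for Vegfb 975 and 44. Depth limits Vegfc, Vegfd and Pgf to sums over libraries. No paired analysis was possible because the libraries carry no replicate number and match no sample.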
